A study of Mus musculus with 117 samples.

Results

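The genes described here are 8 genes of macrophages and of activated macrophages: the 3 chains of complement C1q (C1qa, C1qb, C1qc), the receptors Csf1r and Trem2, and the activation products Chil3, Retnla and Arg1. They are 8 of the 17097 genes that the array measured with at least 1 probe set annotated to a single gene, and each was read from 1 probe set, the one with the highest mean over all 117 arrays. The genes were chosen by a short list drawn up with earlier results of these data known. That earlier account had given the higher C1q signal of Prom1-positive lung cells, the higher Trem2 signal in the mean of the sorted tissues and the lower signal of macrophage genes in Prom1-positive liver cells. All values of these 3 comparisons are therefore given below as a description, with no p-value. Calls counted in them say only which genes passed the threshold and are no independent support. All 8 genes passed the filter on low signal (above the median of the array on at least 3 arrays) in every comparison.

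The study profiled tumours of mice described as Prom1 conditional mutants together with normal cells of mouse tissues; all samples were labelled C57BL/6, and neither ages nor the alleles carried by a given mouse were in the labels. Normal tissues were dissociated and separated with magnetic beads carrying an antibody to Prom1 (prominin 1, a membrane glycoprotein used to isolate stem cells), which gave Prom1-positive and Prom1-negative cells of prostate (3 and 5 samples), lung (3 and 7), intestine (3 and 5), liver (4 and 7), stomach (3 and 4) and uterus (4 and 3). Adenocarcinomas of stomach (11), prostate (10) and uterus (9), hepatocellular carcinomas (13), bronchial papillary adenomas (14), skin squamous cell carcinomas (6) and B cell lymphomas (3) made up the 66 tumours. Tumours were frozen as whole pieces of tissue whereas normal cells were dissociated and sorted, so that state and handling cannot be told apart in a comparison of the 2. Nothing in the labels ties a sample to an animal, and p-values therefore measure the spread between these samples only.

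Values are log2 signals, on which a difference of 1 is a 2-fold change, and the number of arrays limits their precision. The median signal of an array lay between 3.63 and 4.01 and is taken as background here. The upper quartile lay below 6 on 6 arrays, all of sorted cells and 5 of them Prom1-positive. The 3′ to 5′ signal ratio of Gapdh, a measure of RNA degradation, was higher on Prom1-positive arrays of liver (1.14 ± 0.04, SD, n = 4, against 0.60 ± 0.21, SD, n = 7, log2) and lower on those of uterus (0.68 ± 0.22, SD, n = 4, against 1.05 ± 0.65, SD, n = 3). It was also higher on Prom1-positive arrays of prostate (0.997 ± 0.05, SD, n = 3, against 0.64 ± 0.14, SD, n = 5, without overlap) and of lung (0.95 ± 0.27, SD, n = 3, against 0.56 ± 0.22, SD, n = 7). Prom1 itself averaged 11.37 in positive and 9.91 in negative cells of uterus and 10.18 and 8.42 in those of prostate, but 6.56 and 6.55 in lung and 3.17 and 2.94 in liver, where it stood at background in 3 of 4 positive and all 7 negative samples. One uterine adenocarcinoma (sample 6) carried hepatocyte transcripts, with Alb at 13.35, Apoa1 at 12.18 and Cps1 at 8.88; without it the same members were called in both comparisons of the uterine tumours, while the differences from either sort alone and that of Il33 were not recomputed without it.

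C1q is the recognition unit of the classical complement pathway and is made in the mouse mainly by macrophages and dendritic cells, whereas most other complement proteins come from the liver. Csf1r is the receptor through which Csf1 and Il34 keep macrophages alive, and Trem2 is a lipid-binding receptor of tissue macrophages that signals through the adaptor Tyrobp. Chil3 (Ym1), Retnla (Fizz1) and Arg1 are induced in macrophages by the type 2 cytokines Il4 and Il13. Chil3 is also a constant product of alveolar macrophages, and Arg1 is also the last enzyme of the urea cycle in hepatocytes. In bulk samples such as these, fewer macrophages and less RNA of a gene per macrophage cannot be told apart.

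Among the sorted tissues that can be tested, uterus had the most calls between Prom1-positive and Prom1-negative cells. In uterus 5 of the 8 genes rose (the C1q chains, Csf1r and Trem2) and none fell, where 10.9% of all genes were called at an adjusted p under 0.05 by limma. In prostate Csf1r and Trem2 rose and none fell, against 9.19% of all genes. In intestine and stomach none of the 8 was called, against 0.199% and 3.17% of all genes. As a description, 3 were higher in lung (the C1q chains; 1.51% of all genes were called), 5 were lower in liver (the C1q chains, Csf1r and Chil3; 20.7%) and 6 were higher in the mean of the 6 tissues (all but Chil3 and Arg1; 13.6%). Over the 4 tissues other than lung and liver, a comparison added after seeing the data, the difference between the sorts itself differed between tissues for Csf1r (adjusted p = 0.000758, limma F test) and Trem2 (adjusted p = 0.0129), against 10.6% of all genes. It was not past the threshold for the other 6, among them C1qa, C1qb and C1qc (adjusted p = 0.553, 0.425 and 0.282). For Trem2, the tests in uterus, in prostate and between the 4 tissues reuse differences that enter the mean known earlier.

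**Figure D1:**
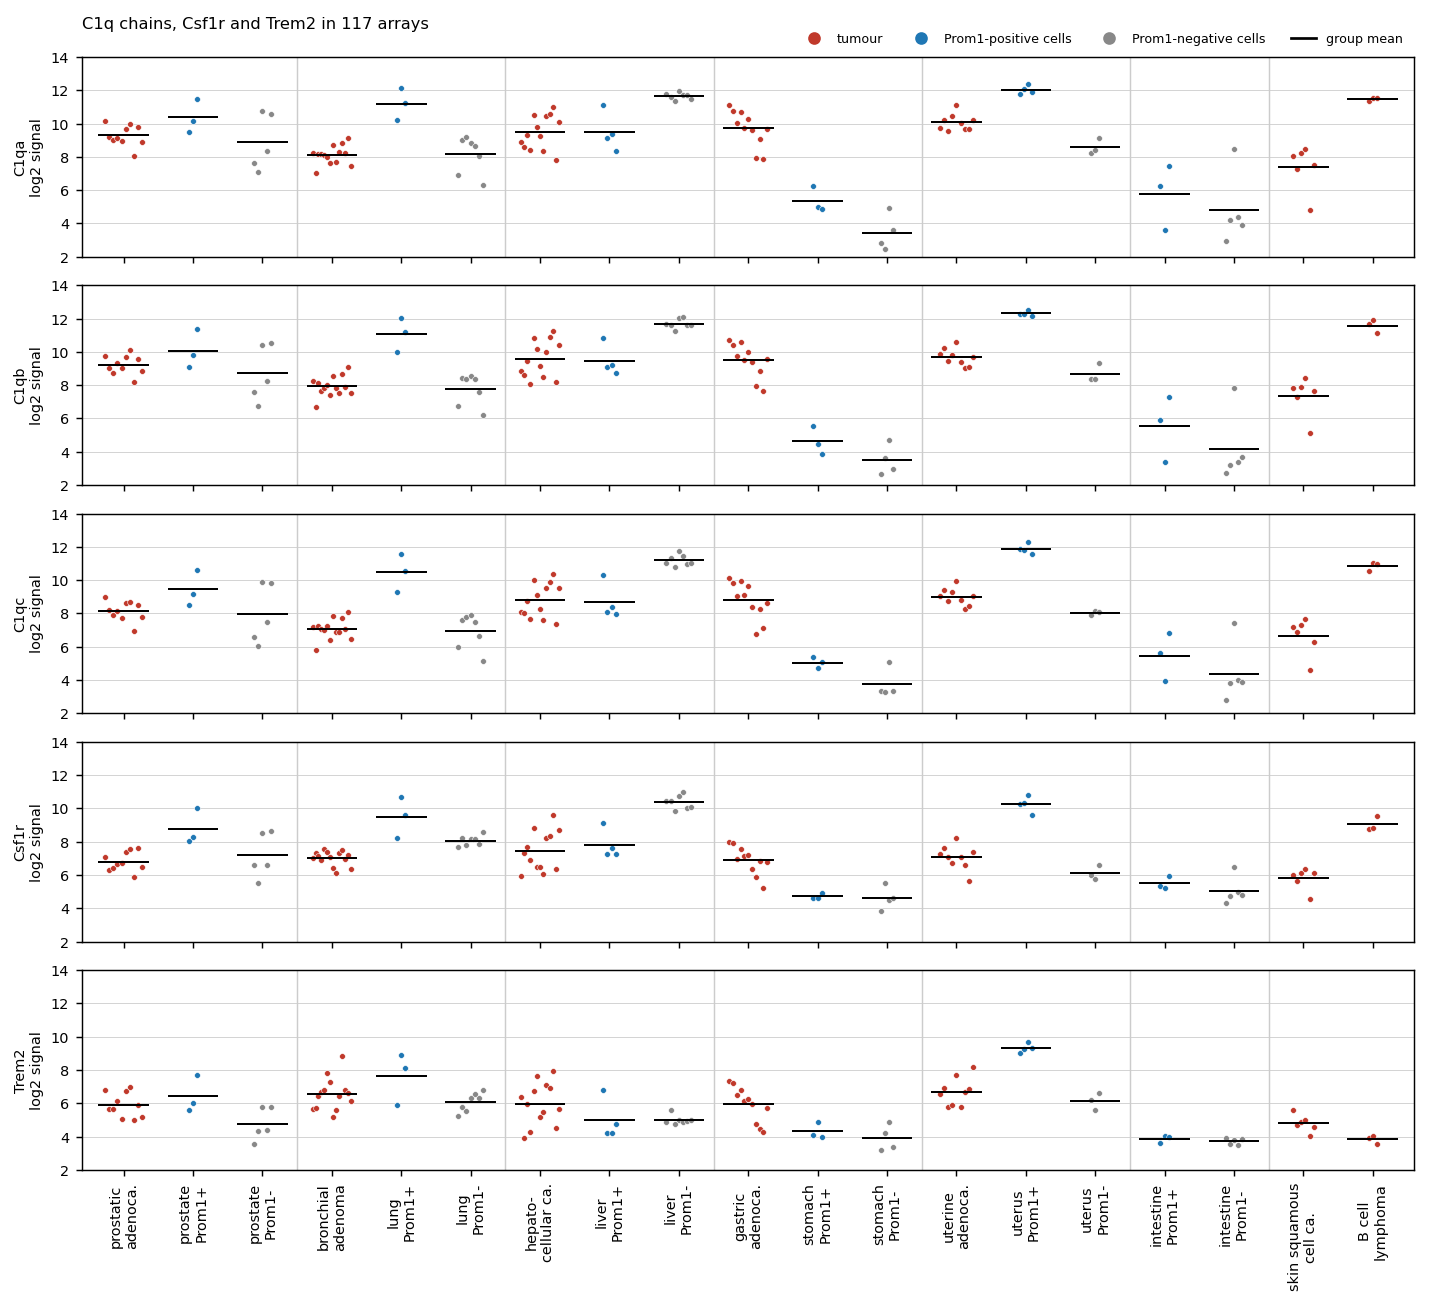
Log2 signal (vertical axis) of C1qa, C1qb, C1qc, Csf1r and Trem2 on each of 117 arrays, by group, with tumours left of the Prom1-positive and Prom1-negative cells of the same organ. Points are samples and bars are group means; the 3 C1q panels repeat one profile, high in Prom1-positive uterus and Prom1-negative liver cells and low in sorted stomach and intestine, while Trem2 is near background in B cell lymphomas, where C1q is high.

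The 3 C1q chains shared one profile. Over the 19 group means their signals correlated at r = 0.99 or above with each other, which is a description of groups that share array and normalization, and within groups the deviations of single samples from their group mean correlated at 0.96 to 0.97. Over the same groups r with C1q was 0.91 to 0.92 for Csf1r, 0.62 for Trem2, 0.31 to 0.39 for Chil3, 0.41 to 0.43 for Retnla and 0.34 to 0.36 for Arg1. In the order of mean signal Prom1-positive uterus cells came first and Prom1-negative stomach cells last for each chain, 8.13 to 8.84 apart, and the sample ranges of neighbouring groups overlapped in 17 or 18 of 18 cases. The 3 genes lie side by side on chromosome 4 in the order C1qb, C1qc, C1qa. RefSeq windows from 250 bases before to 50 after the annotated start (build GRCm38.p6) were at hand for C1qb and C1qc, and are shown because the pair had the same calls in every comparison; C1qa had none. The hexamer GAGGAA, a core of sites bound by Ets-family factors such as Spi1, is in capitals where it or its reverse complement TTCCTC occurs. It was found once in each window, at position -30 from the C1qb start on the sense strand and at -193 from the C1qc start on the opposite strand, and 28.3% of 32851 mouse windows of this length held it on either strand. The Trem2 and Retnla windows also held it once each, at -40 and -196, and the Chil3 window did not, so it does not set the C1q pair apart.
C1qb, chr4:136886151-136886450, minus strand: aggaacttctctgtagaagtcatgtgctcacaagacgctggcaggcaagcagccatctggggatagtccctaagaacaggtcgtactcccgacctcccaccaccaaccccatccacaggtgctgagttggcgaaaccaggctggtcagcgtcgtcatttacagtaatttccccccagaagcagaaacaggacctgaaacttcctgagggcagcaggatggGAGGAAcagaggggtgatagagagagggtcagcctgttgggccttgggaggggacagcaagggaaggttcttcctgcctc
C1qc, chr4:136892865-136893164, minus strand: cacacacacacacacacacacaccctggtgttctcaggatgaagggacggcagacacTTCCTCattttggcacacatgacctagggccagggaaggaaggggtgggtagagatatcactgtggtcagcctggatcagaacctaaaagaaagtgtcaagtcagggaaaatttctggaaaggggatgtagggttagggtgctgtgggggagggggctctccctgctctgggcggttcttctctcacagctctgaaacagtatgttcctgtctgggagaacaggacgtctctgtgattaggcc

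C1q signal was highest in Prom1-positive uterus cells. C1qb, the B chain, read 12.30, 12.27, 12.54 and 12.17 in Prom1-positive uterus cells, against 8.39, 8.34 and 9.32 in Prom1-negative uterus cells. The groups did not overlap, and C1qb rose by 3.63 (SE 0.86, adjusted p = 0.00292, limma). C1qa rose by 3.42 (SE 0.89, adjusted p = 0.00674) and C1qc by 3.82 (SE 0.81, adjusted p = 0.000862). Markers of other macrophage programmes moved with them: 10 of 13 general macrophage genes and 6 of 8 genes known from Kupffer cells were higher in Prom1-positive uterus cells, and the mean signal over the 13 genes was 10.54 to 10.95 in them, against 7.83 to 8.19 in Prom1-negative cells. T and NK cell genes ran the other way, with 4 of 8 lower, and so did 3 of 6 fibroblast genes, whose mean signal was 8.43 to 9.57 in Prom1-positive cells, against 10.43 to 10.82 in Prom1-negative cells. The part of cell numbers in these differences was not tested. In this sort 5.31% of all genes were called higher and 5.64% lower.

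In lung and liver the difference in C1q ran opposite ways. C1qc read 9.29, 11.59 and 10.53 in Prom1-positive lung cells, against a lowest, median and highest value of 5.15, 7.49 and 7.91 in Prom1-negative lung cells. The groups did not overlap and differed by 3.53 (SE 0.73); without Prom1-positive sample 2, the highest, the C1q differences of 3.05 to 3.53 became 2.59 to 2.97 and the number of the 8 genes called went to 0, against 6 without Prom1-positive sample 1 and 1 without Prom1-positive sample 4. Of the 13 general macrophage genes none was called in the lung sort (median difference 0.3), while 5 of 8 genes known from Kupffer cells were higher and 6 of 8 T and NK cell genes lower in Prom1-positive cells. Of all genes 1.51% were called in this sort. In liver C1qc read 10.31, 8.11, 8.39 and 7.95 in Prom1-positive cells, against a lowest, median and highest value of 10.77, 11.06 and 11.75 in Prom1-negative cells. Here too the groups did not overlap, with Prom1-positive cells lower by 2.5 (SE 0.67; C1qa difference -2.13 and C1qb -2.24), and sample 2 stood above the other Prom1-positive samples. Without Prom1-positive liver sample 3, 4 or 5 the number of the 8 genes called went to 3. Of the general macrophage genes 12 of 13 were lower in Prom1-positive liver cells, as were 8 of 8 T and NK cell genes, where 16.5% of all genes were called lower. Clec4f, a defining gene of Kupffer cells, the resident macrophages of liver, averaged 9.07 ± 1.22 in Prom1-positive cells (SD, n = 4) and 11.61 ± 0.25 in Prom1-negative cells (SD, n = 7). On these positive liver arrays the Gapdh 3′ to 5′ ratio was also higher, as given above, and with that ratio in the fit the C1qa difference was -1.95. With that ratio or the upper quartile (-1.98) in the fit C1qa was no longer past the threshold, nor was Chil3 under array weights (-2.36). With the Gapdh ratio in the fit no call of the 8 genes changed in lung (C1qc difference 3.51).

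In the other tissues no C1q chain was called between the sorts. C1qa read 9.48, 10.17 and 11.48 in Prom1-positive prostate cells, against 7.63, 7.10, 10.76, 8.34 and 10.57 in Prom1-negative prostate cells (difference 1.5, 95% confidence interval -0.21 to 3.21, adjusted p = 0.332). In intestine it read 6.27, 3.63 and 7.42 in Prom1-positive cells, against 2.96, 4.23, 8.47, 4.41 and 3.92 in Prom1-negative cells, where sample 4 stood apart. In stomach it read 6.26, 4.98 and 4.87 in Prom1-positive cells, against 2.82, 2.46, 4.93 and 3.6 in Prom1-negative cells, of which 3 of 4 lay at background. Intestine and stomach thus had the lowest C1q of the 12 sorted groups.

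**Figure D2:**
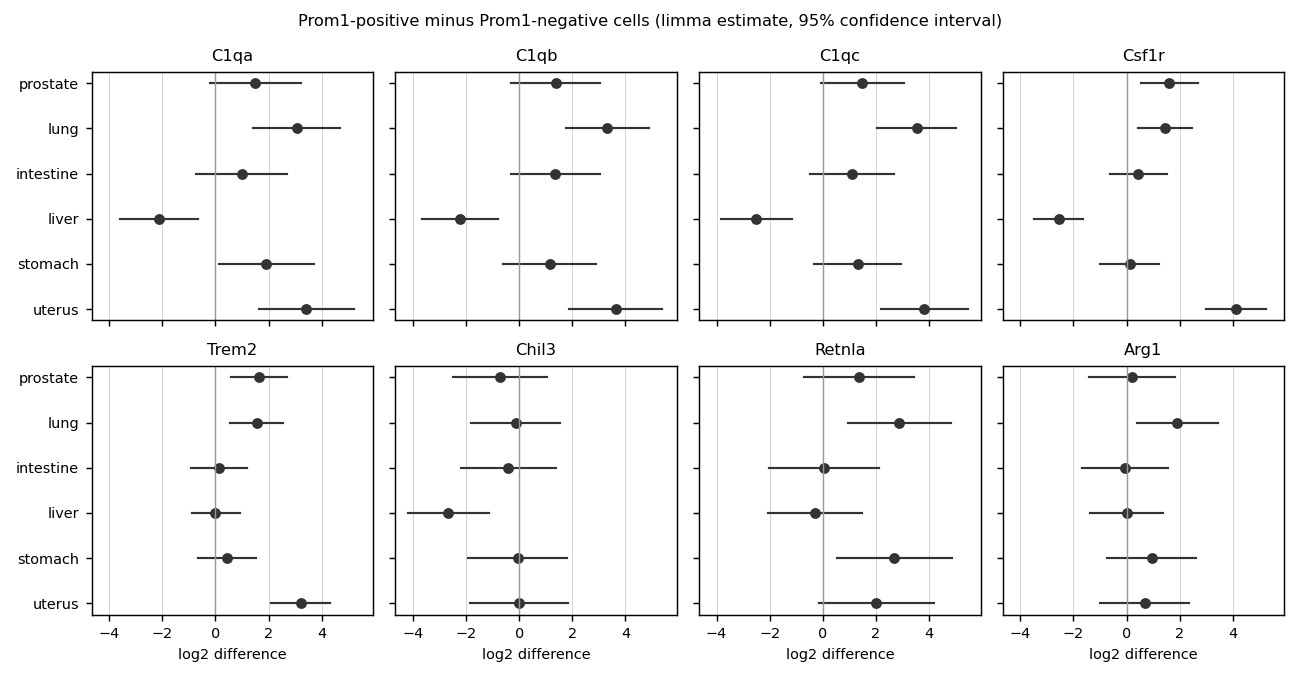
Difference in log2 signal (horizontal axis) between Prom1-positive and Prom1-negative cells of each tissue for the 8 genes, with 95% confidence intervals from limma; values right of 0 are higher in Prom1-positive cells. Csf1r and the C1q chains lie right of 0 in uterus and left of 0 in liver, and Chil3 lies near 0 in uterus, lung and stomach.

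Against sorted cells of the organ, C1q was higher in tumours of the stomach and lower in those of lung and liver. C1qb had a lowest, median and highest value of 7.63, 9.56 and 10.72 in gastric adenocarcinomas, against 5.57, 4.46 and 3.86 in Prom1-positive and 2.63, 3.62, 4.71 and 2.95 in Prom1-negative stomach cells. No tumour overlapped the sorted cells, and C1qb rose by 5.44 (SE 0.48, adjusted p = 4.91e-18); C1qa rose by 5.29 and C1qc by 4.40. All 13 general macrophage genes rose in this comparison as well, and so did 5 of 6 fibroblast and 5 of 6 endothelial genes, where 58.1% of all genes were called. The part of these lists in the result was not tested. In lung C1qa fell by 1.56 (SE 0.43, adjusted p = 0.00193) and in liver by 1.11 (SE 0.42, adjusted p = 0.022). Both depended on the sorted cells that served as reference: against Prom1-negative lung cells alone the C1qa difference of the adenomas was -0.03 (adjusted p = 0.974), and against Prom1-positive liver cells alone that of the carcinomas was -0.04 (adjusted p = 0.963). The liver calls of all 3 chains were lost without Prom1-positive liver sample 2 (differences of -0.84, -0.78 and -0.89). In prostate and uterus no C1q chain was called, but against Prom1-positive uterus cells alone all 3 were lower in uterine tumours (C1qc -2.88, adjusted p = 3.87e-05).

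Among tumour types, B cell lymphomas had the highest C1q. C1qa read 11.34, 11.55 and 11.55 in the lymphomas, above all 63 other tumours, and was 2.47 above the mean of the other types (SE 0.49, adjusted p = 3.02e-05). C1qb was higher by 2.7 and C1qc by 2.76, and 11 of 13 general macrophage genes and 7 of 8 T and NK cell genes were higher too. In this comparison 24.3% of all genes were called higher and 22.3% lower. Skin squamous cell carcinomas had the lowest mean, with C1qa at 4.82, 7.79 and 8.45 (lowest, median and highest) and 2.29 below the other types (SE 0.36, adjusted p = 4.3e-07); without their lowest tumour the difference was -1.78 (adjusted p = 5.25e-05). Bronchial adenomas also had lower C1q than the other types (C1qc fell by 1.64, SE 0.25, adjusted p = 1.08e-07), although 7 of 13 general macrophage genes and 7 of 8 alveolar macrophage genes were higher in them. Of all genes 23.9% were called higher in them and 34.1% lower.

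Csf1r, the macrophage growth factor receptor, was higher in Prom1-positive cells of uterus, as C1q was, and of prostate, where no C1q chain was called. The C1q differences in prostate were 1.37 to 1.5, and whether that of Csf1r departed from them was not tested. Csf1r read 10.28, 10.32, 10.82 and 9.58 in Prom1-positive uterus cells, against 6.03, 5.77 and 6.58 in Prom1-negative uterus cells. The groups lay 3 log2 units apart at their closest, and Csf1r rose by 4.12 (SE 0.56, adjusted p = 8.2e-07). In liver it read 9.12, 7.29, 7.61 and 7.27 in Prom1-positive cells, against a lowest, median and highest value of 9.84, 10.45 and 10.98 in Prom1-negative cells, a difference of -2.55 (SE 0.46) without overlap. Prom1-negative liver cells had the highest mean Csf1r of the 19 groups (10.37 ± 0.42, SD, n = 7), with a range that overlapped that of Prom1-positive uterus cells (10.25 ± 0.51, SD, n = 4). In prostate Csf1r read 8.05, 8.27 and 10.04 in Prom1-positive cells, against 6.61, 5.54, 8.52, 6.59 and 8.65 in Prom1-negative cells. In lung it read 8.22, 10.68 and 9.62 in Prom1-positive cells, against a lowest, median and highest value of 7.66, 8.14 and 8.58 in Prom1-negative cells; the lung groups overlapped and differed by 1.44 (SE 0.5). The prostate groups overlapped too, and the rise of 1.61 (SE 0.53, adjusted p = 0.048) was lost without Prom1-negative sample 1, 2 or 4 or Prom1-positive sample 2 or 3 (0.98 to 1.87, adjusted p = 0.0721 to 0.396). It was also lost with the Gapdh ratio in the fit (1.52, adjusted p = 0.0607), a ratio that was higher on all 3 Prom1-positive prostate arrays. In this sort 6 of 8 T and NK cell, 4 of 6 fibroblast and 4 of 6 endothelial genes fell in the Prom1-positive cells, while none of 13 general macrophage genes was called. The share of all genes called lower was 5.98%.

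In tumours Csf1r was called in more organs than C1q. It rose in gastric adenocarcinomas by 2.22 (SE 0.37, adjusted p = 2.31e-07) and fell in tumours of the other 4 organs: by 1.76 in lung (SE 0.33, adjusted p = 5.49e-06), 1.64 in liver (SE 0.32, adjusted p = 1.12e-05), 1.18 in prostate (SE 0.37, adjusted p = 0.0077) and 1.12 in uterus (SE 0.39, adjusted p = 0.02). The fall in liver was lost against Prom1-positive cells alone (-0.37, adjusted p = 0.547). The fall in prostate was lost without Prom1-positive sample 3 (-0.87, adjusted p = 0.0807) and against Prom1-negative cells alone (-0.38). The fall in uterus was lost without Prom1-negative sample 3 (-1.01, adjusted p = 0.0606), and against Prom1-negative cells alone the difference was 0.94 (adjusted p = 0.192). In the main fit C1qc differed there by -0.97 (SE 0.48, adjusted p = 0.123, limma), and in a fit of uterus alone it was called (adjusted p = 0.00206). Whether the tumour difference of Csf1r departed from that of C1q was not tested. In bronchial adenomas Csf1r lay between 6.12 and 7.57, with a median of 7.10, below every sorted lung sample. Lymphomas had the highest mean Csf1r of the tumour types (8.75, 8.84 and 9.53; 2.20 above the other types, SE 0.46, adjusted p = 6.32e-05) and skin carcinomas the lowest mean (1.58 below, SE 0.33, adjusted p = 9.9e-05).

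Trem2 was set apart by Prom1-positive uterus cells and by lymphomas. It read 9.05, 9.29, 9.68 and 9.33 in Prom1-positive uterus cells, against 6.17, 5.62 and 6.63 in Prom1-negative uterus cells, and rose by 3.2 (SE 0.55, adjusted p = 4.35e-05). That group had the highest mean of the 19 and did not overlap with the next in order, Prom1-positive lung cells (5.90, 8.90 and 8.11). In liver the sorts differed in Trem2 by 0 (SE 0.45), unlike in C1q, and it read 6.78, 4.24, 4.19 and 4.74 in Prom1-positive cells, against 4.73, 4.91 and 5.58 (lowest, median and highest) in Prom1-negative cells. In prostate it read 5.57, 5.99 and 7.68 in Prom1-positive cells, against 3.56, 4.33, 5.80, 4.39 and 5.77 in Prom1-negative cells. The rise of 1.64 there (SE 0.52, adjusted p = 0.0376) was lost without the same 5 samples as that of Csf1r (1.01 to 1.85, adjusted p = 0.0672 to 0.358). The mean difference over the 6 tissues was 1.16 (SE 0.21). That mean was known before the genes were chosen and includes uterus and prostate. The Trem2 tests in these 2 tissues are therefore not independent of the choice. The Trem2 probe set is of a type that may share probes with another transcript, and the other Trem2 probe set was above the array median on 15 of 117 arrays, with a mean of 3.28 and a difference of 0.09 in the uterus sort (SE 0.25).

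In the B cell lymphomas Trem2 read 3.94, 4.06 and 3.55, near background, although mean C1q was higher there than in any other tumour type. It was 2.13 below the other types (SE 0.56, adjusted p = 0.00136). Bronchial adenomas and uterine adenocarcinomas had more Trem2 than the other types, by 1.04 (SE 0.29, adjusted p = 0.00199) and 1.18 (SE 0.35, adjusted p = 0.0071; 1.3 without uterine tumour 6). Against sorted cells Trem2 rose in gastric adenocarcinomas by 1.82 (SE 0.42, adjusted p = 0.000138; 0.5, adjusted p = 0.0486, with the mean of both probe sets) and in hepatocellular carcinomas by 0.99 (SE 0.36, adjusted p = 0.0193). The liver call was lost without Prom1-positive sample 3 or 4 (0.87 and 0.86, adjusted p = 0.0597 each), against Prom1-positive cells alone (adjusted p = 0.106) and with the mean of both probe sets (0.24). In the fit of all single-gene probe sets the other Trem2 set fell by 0.82 in gastric adenocarcinomas (adjusted p = 2.3e-07) and by 0.52 in hepatocellular carcinomas (adjusted p = 0.000143). Tyrobp, the adaptor of Trem2, was 1.47 above the other types in lymphomas (11.13 to 11.57).

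**Figure D3:**
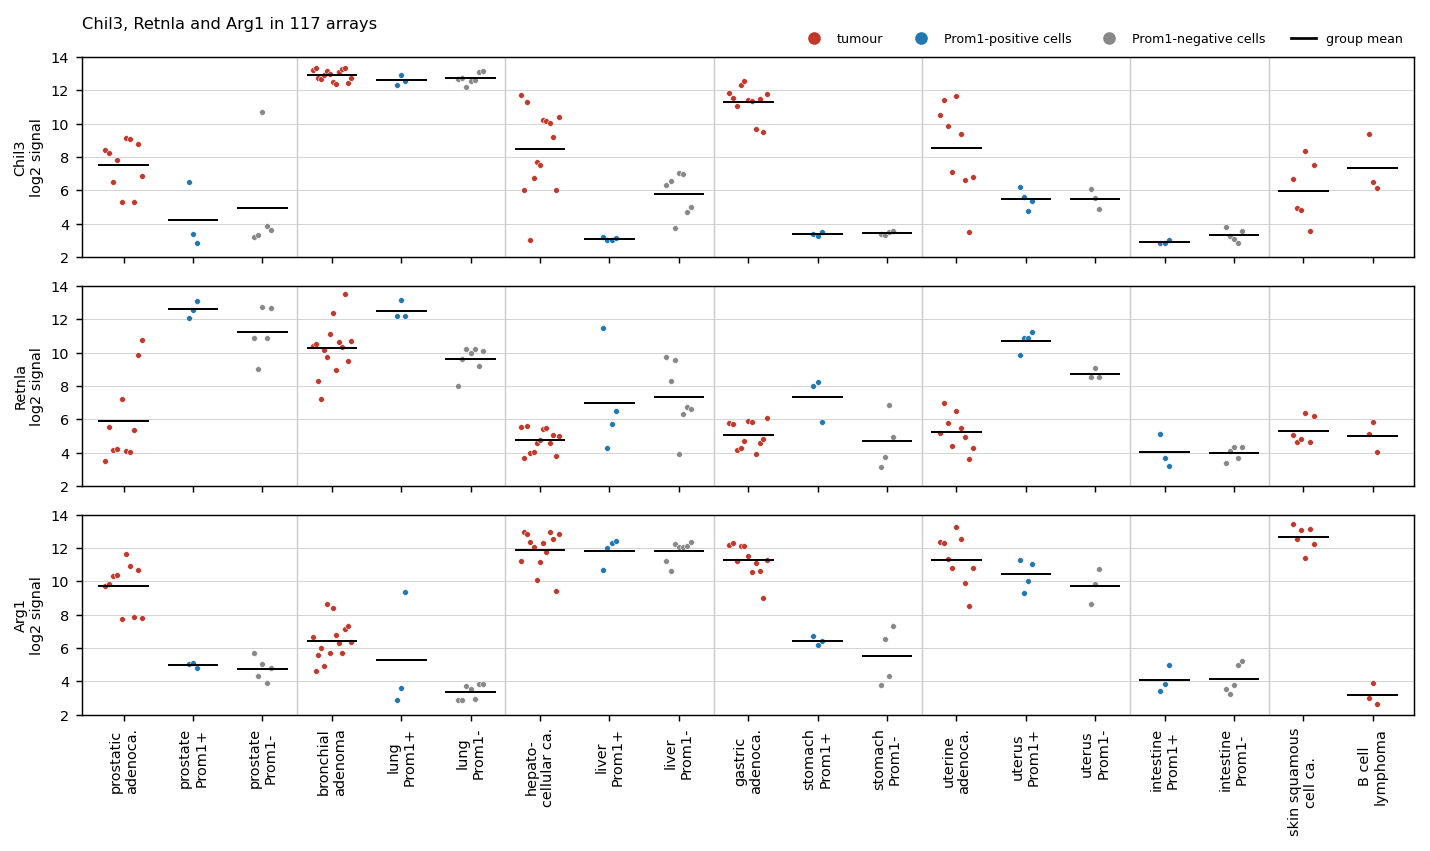
Log2 signal (vertical axis) of Chil3, Retnla and Arg1 on each of 117 arrays, by group, with tumours left of the Prom1-positive and Prom1-negative cells of the same organ; points are samples and bars are group means. Chil3 is high in all lung groups and in gastric adenocarcinomas, Retnla in sorted prostate, lung and uterus and in bronchial adenomas, and Arg1 in all liver and uterus groups and in every tumour type except bronchial adenomas and lymphomas.

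Each of the 3 activation products had a profile of its own: mean Chil3 was highest in bronchial adenomas and lowest in Prom1-positive intestine cells, Retnla highest in Prom1-positive prostate and lowest in Prom1-negative intestine cells, and Arg1 highest in skin carcinomas and lowest in lymphomas. Neighbouring groups in these orders overlapped in 17 or 18 of 18 cases. Over the 19 group means r was 0.28 between Chil3 and Retnla, 0.01 between Chil3 and Arg1 and -0.23 between Retnla and Arg1, again as a description. The promoter windows of Chil3 and Retnla are shown because both genes ranged over more than 8 log2 units between groups and yet did so in different tissues; Arg1 had no window. TATAAA is in capitals. It was found once in each on the sense strand, at position -3 from the annotated Chil3 start and at -30 from that of Retnla, and 13.6% of the 32851 windows held it on either strand. A match is a description of these letters and not a shown site.
Chil3, chr3:106167515-106167814, minus strand: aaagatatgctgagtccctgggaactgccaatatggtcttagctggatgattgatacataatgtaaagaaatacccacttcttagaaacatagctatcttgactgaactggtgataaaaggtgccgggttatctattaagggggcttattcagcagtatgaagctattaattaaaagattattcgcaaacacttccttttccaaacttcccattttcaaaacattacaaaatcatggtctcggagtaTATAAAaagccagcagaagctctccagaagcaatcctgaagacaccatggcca
Retnla, chr16:48842359-48842658, plus strand: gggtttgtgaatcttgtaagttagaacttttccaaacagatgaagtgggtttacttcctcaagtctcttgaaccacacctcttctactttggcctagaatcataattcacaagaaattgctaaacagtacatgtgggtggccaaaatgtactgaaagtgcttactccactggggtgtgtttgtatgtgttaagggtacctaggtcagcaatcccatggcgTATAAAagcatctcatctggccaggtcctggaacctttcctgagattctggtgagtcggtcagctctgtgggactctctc

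Chil3, a secreted chitinase-like protein, was high in lung whichever way the cells were sorted. Bronchial adenomas had a lowest, median and highest value of 12.38, 12.95 and 13.32. Chil3 read 12.30, 12.95 and 12.59 in Prom1-positive lung cells, against 12.23, 12.67 and 13.17 (lowest, median and highest) in Prom1-negative lung cells. The 3 groups overlapped throughout. The sorts differed by -0.12 (95% confidence interval -1.8 to 1.55) and tumours from sorted cells by 0.24 (95% confidence interval -1.12 to 1.6, adjusted p = 0.827). Siglecf, a receptor that marks alveolar macrophages, was above background in all of these samples (7.84 ± 1.06, SD, n = 3, in Prom1-positive and 8.42 ± 1, SD, n = 7, in Prom1-negative lung cells). In liver Chil3 was at background in all 4 Prom1-positive samples (3.22, 3.01, 3.01 and 3.16), against 3.74, 6.35 and 7.03 (lowest, median and highest) in Prom1-negative cells. In sorted stomach and Prom1-positive intestine cells it was at background in every sample. In Prom1-negative prostate cells it read 10.71 in sample 3 and 3.24 to 3.89 in the other 4.

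In tumours Chil3 rose in 4 of 5 organs. The widest change was in the stomach: gastric adenocarcinomas read 9.52, 11.47 and 12.59 (lowest, median and highest), against 3.41, 3.29 and 3.51 in Prom1-positive and 3.39, 3.31, 3.54 and 3.59 in Prom1-negative stomach cells. The groups lay far apart, with a rise of 7.90 (SE 0.77, adjusted p = 7.58e-16). Chil3 also rose by 4.04 in hepatocellular carcinomas (SE 0.66, adjusted p = 2.45e-07), 3.05 in uterine adenocarcinomas (SE 0.80, adjusted p = 0.00172; 2.94 without uterine tumour 6) and 2.95 in prostatic adenocarcinomas (SE 0.76, adjusted p = 0.00112). The spread within tumour types was wide: hepatocellular carcinomas ran from 3.06 to 11.75 and uterine adenocarcinomas from 3.54 to 11.65. Among types Chil3 was higher than in the others in bronchial adenomas (4.71, SE 0.54, adjusted p = 4.23e-11) and gastric adenocarcinomas (2.86, SE 0.59, adjusted p = 5.96e-05), and lower in skin carcinomas (-3.37, SE 0.76, adjusted p = 0.000242).

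Chil4 (Ym2), the neighbour and close paralogue of Chil3, was higher in sorted stomach cells than in gastric tumours. Its first probe set read 2.65, 2.82 and 4.23 (lowest, median and highest) in gastric adenocarcinomas, against 10, 5.69 and 9.62 in Prom1-positive and 5.09, 5.75, 8.33 and 10.09 in Prom1-negative stomach cells, all above background. In a fit of all single-gene probe sets, in which 57.3% were called, it fell by 4.9 (SE 0.52, adjusted p = 3.83e-14). The second Chil4 probe set, of the type that may share probes with another transcript, rose by 2.23 in the same comparison (SE 0.83, adjusted p = 0.0168) and its signal cannot be assigned to Chil4 alone. In Prom1-positive lung cells it averaged 12.41 ± 0.48 (SD, n = 3), while the first set was at background there (3.48 ± 0.23, SD, n = 3). Outside the stomach the first Chil4 set read 12.1 and 5.85 in 2 skin carcinomas and at most 5.29 on the other arrays. Chia1, the acidic chitinase gene on the other side of Chil3, fell by 7.76 in gastric adenocarcinomas.

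**Figure D4:**
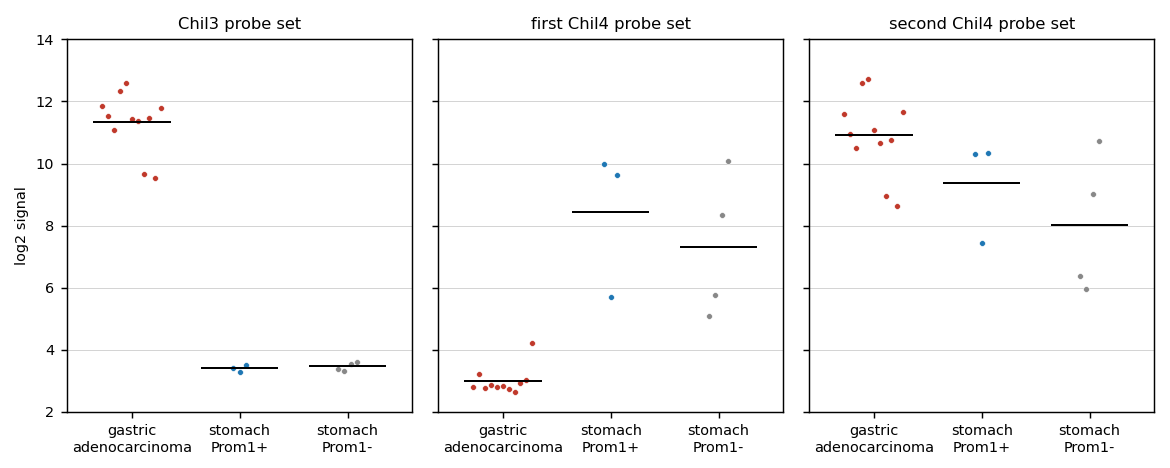
Log2 signal (vertical axis) of the Chil3 probe set and of the 2 Chil4 probe sets in gastric adenocarcinomas, Prom1-positive and Prom1-negative stomach cells; points are samples and bars are group means. Chil3 is at background in sorted stomach cells and between 9.52 and 12.59 in tumours, and the first Chil4 set is above 5 in every sorted sample and at most 4.23 in tumours.

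Retnla, a secreted resistin-like protein, was high in sorted prostate, lung and uterus cells and in bronchial adenomas, and lowest in sorted intestine cells (means of 4.02 in Prom1-positive and 3.98 in Prom1-negative cells). It read 12.10, 12.58 and 13.09 in Prom1-positive prostate cells, against 10.86, 9, 12.74, 10.85 and 12.68 in Prom1-negative prostate cells, and no other group had a higher mean (12.59 ± 0.50, SD, n = 3). In lung it read 12.18, 13.14 and 12.18 in Prom1-positive cells, against 7.98, 9.98 and 10.22 (lowest, median and highest) in Prom1-negative cells, a difference of 2.88 (SE 0.97) without overlap. In uterus it read 9.87, 10.87, 10.87 and 11.25 in Prom1-positive cells, against 8.53, 9.07 and 8.52 in Prom1-negative cells. The uterus groups did not overlap either, but the difference of 2.01 was not called (SE 1.07, adjusted p = 0.295; adjusted p = 0.00215 in a fit of uterus alone). In liver 1 Prom1-positive sample (11.5 in sample 2, against 4.27, 5.73 and 6.50 in the other 3) stood above the range of Prom1-negative cells (3.90 to 9.75).

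Retnla fell in tumours of prostate by 6.03 (SE 0.68, adjusted p = 2.21e-12), of uterus by 4.48 (SE 0.72, adjusted p = 3.26e-07; 4.51 without uterine tumour 6) and of liver by 2.42 (SE 0.59, adjusted p = 0.000395). Prostatic adenocarcinomas had 3.50, 4.81 and 10.76 (lowest, median and highest), with 2 tumours at 9.84 and 10.76 inside the range of sorted prostate cells and the other 8 at 7.19 or below. Uterine adenocarcinomas lay at 3.6, 5.17 and 6.99, below every sorted uterus sample. In lung Retnla was not called (-0.81, adjusted p = 0.308; -2.25 against Prom1-positive cells alone, adjusted p = 0.047), and bronchial adenomas kept a wide range of 7.20 to 13.49 with a median of 10.38. This type was 5.05 above the other types (SE 0.43, adjusted p = 7.66e-16), and the other 6 types had means of 4.73 to 5.88. Among paralogues Retnlb was above background mainly in intestine (6.46 ± 3.46 in Prom1-positive cells, SD, n = 3, and 8.88 ± 2.93 in Prom1-negative cells, SD, n = 5), where Retnla was lowest.

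Arg1, which turns arginine into ornithine and urea, rose in tumours of prostate, stomach and lung. In prostate it read 7.76, 10.06 and 11.63 (lowest, median and highest) in adenocarcinomas, against 5.03, 5.09 and 4.82 in Prom1-positive and 5.71, 4.34, 5.06, 3.93 and 4.79 in Prom1-negative cells. No tumour overlapped the sorted cells, and Arg1 rose by 4.82 (SE 0.55, adjusted p = 3.42e-12). In gastric adenocarcinomas it had a median of 11.29 and a lowest value of 9.03, against 3.8 to 7.34 in sorted stomach cells, and rose by 5.3 (SE 0.56, adjusted p = 2.95e-14). In bronchial adenomas it rose by 2.10 (SE 0.50, adjusted p = 0.000263), which was lost against Prom1-positive cells alone (1.15, adjusted p = 0.248), where sample 4 read 9.39 and the other 2 read 2.88 and 3.61. In liver, where hepatocytes make it, Arg1 averaged 11.88 ± 1.12 in carcinomas (SD, n = 13), 11.84 ± 0.81 in Prom1-positive cells (SD, n = 4) and 11.83 ± 0.66 in Prom1-negative cells (SD, n = 7), and the tumour difference was 0.05 (95% confidence interval -0.9 to 1).

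Skin squamous cell carcinomas had the highest Arg1 of the 19 groups while 6 of the other 7 genes were lower in them than in other types. It read 11.42, 12.83 and 13.43 (lowest, median and highest), 3.68 above the other types (SE 0.50, adjusted p = 1.15e-08). In B cell lymphomas Arg1 read 3.04, 3.89 and 2.63, below every other tumour (-7.35, SE 0.68, adjusted p = 2.89e-14). The mitochondrial paralogue Arg2 ran differently: it was 4.21 above the other types in bronchial adenomas, where Arg1 was 3.56 below them (SE 0.36, adjusted p = 4.02e-13). In sorted uterus cells Arg1 was high in both sorts (10.42 ± 0.92 in Prom1-positive, SD, n = 4, and 9.74 ± 1.06 in Prom1-negative, SD, n = 3) without the hepatocyte gene Alb, which was at background in all 7. Without uterine tumour 6 the Arg1 difference of uterine adenocarcinomas from the other types was 1.97, against 2.12 with it.

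**Figure D5:**
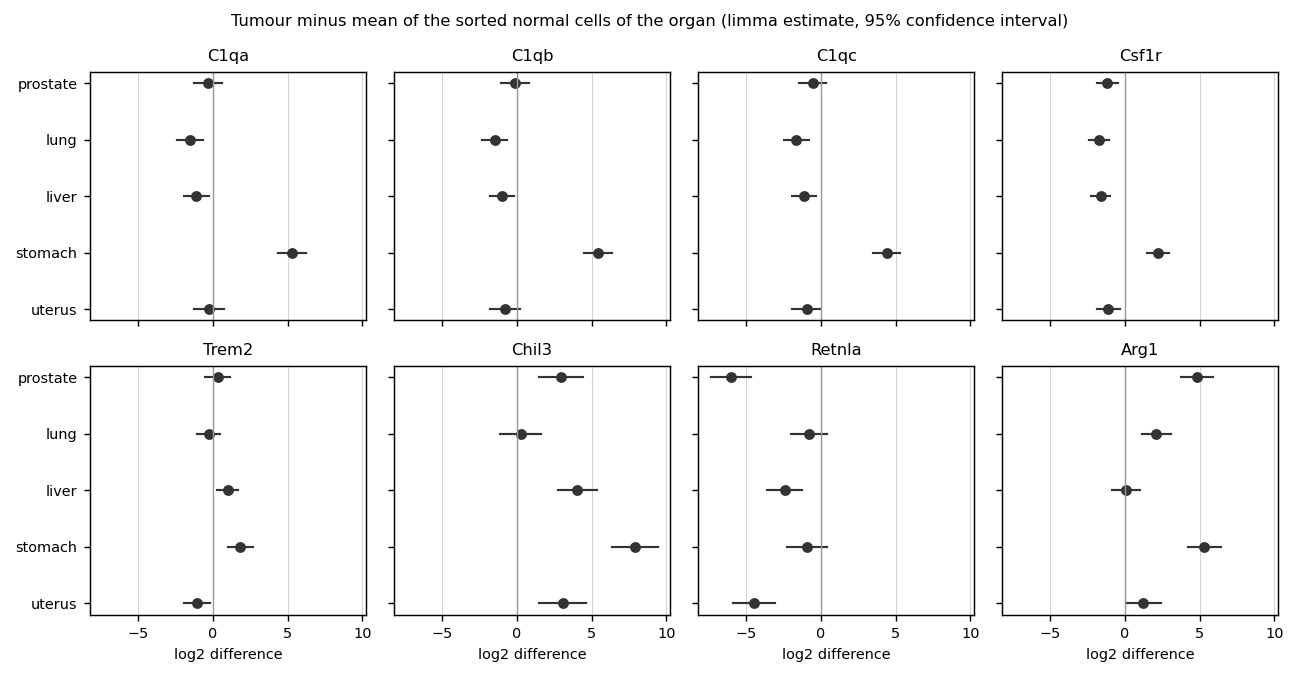
Difference in log2 signal (horizontal axis) between tumours and the mean of the sorted Prom1-positive and Prom1-negative cells of the same organ for the 8 genes, with 95% confidence intervals from limma; values right of 0 are higher in tumours. In stomach 7 of the genes lie right of 0. Retnla lies left of 0 in every organ, with intervals that include 0 in lung and stomach, and Csf1r lies left of 0 in every organ but stomach.

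Counted over the 8 genes, 7 rose in tumours of the stomach and none fell, where 58.1% of all genes were called, with a median difference of 4.85 over the 8 genes and 0.11 over all genes. In liver 2 rose (Trem2 and Chil3) and 5 fell (47.2% of all genes called), in lung 1 rose (Arg1) and 4 fell (43.1%), in prostate 2 rose (Chil3 and Arg1) and 2 fell (36.7%) and in uterus 1 rose (Chil3) and 2 fell (28.8%). A difference between organs in the tumour effect was past the threshold for all 8, as it was for 77.9% of all genes.

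Across the 7 tumour types all 8 genes were called by limma's F test, where 95.1% of all genes were called. Bronchial adenomas had 3 higher (Trem2, Chil3 and Retnla) and 4 lower (58.1% of all genes), hepatocellular carcinomas 1 higher (Arg1) and 1 lower (Retnla; 66.3%), and gastric adenocarcinomas 2 higher (Chil3 and Arg1; 47.9%). Prostatic adenocarcinomas had 1 lower (Chil3; 41.8%), uterine adenocarcinomas 3 higher (C1qa, Trem2 and Arg1; 29.8%), skin carcinomas 1 higher (Arg1) and 6 lower (41.7%), and lymphomas 4 higher (the C1q chains and Csf1r) and 2 lower (Trem2 and Arg1; 46.6%). The C1qa call of uterine adenocarcinomas was lost with the upper quartile in the fit (0.56, adjusted p = 0.17) and in a fit over all 117 samples (adjusted p = 0.0867), and without uterine tumour 6 the difference was 0.83 and still called. Without prostatic tumours 9 and 10, which had the highest Adipoq signal of that type, its Chil3 call was lost (-1.62, adjusted p = 0.0549, limma). Retnla was then called (-1.16, adjusted p = 0.0225). Without skin carcinoma 5 the Trem2 call of skin carcinomas was lost (-0.88, adjusted p = 0.116). That Trem2 call was also lost with the mean of both probe sets (-0.46, adjusted p = 0.071) and with the upper quartile in the fit (-0.75, adjusted p = 0.137).

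The partners of these genes were followed through fixed lists, of which the members were picked with the earlier account known. Of 9 measured genes of the classical complement pathway other than C1q, all 9 rose in gastric adenocarcinomas against sorted stomach cells (median 2.53), among them the C1 inhibitor gene Serping1 (4.77), the integrin chain Itgb2 (3.70), the protease gene C1s1 (3.28) and the receptor gene C3ar1 (3.03). In this comparison 35% of all genes were called higher and 23% lower. In Prom1-positive uterus cells 4 rose, led by the anaphylatoxin receptors C5ar1 (3.97) and C3ar1 (3.68), while the proteases C1s1 and C1ra that complete the C1 complex fell by 2.02 and 1.82. In the uterus sort 5.31% of all genes were called higher and 5.64% lower. In hepatocellular carcinomas 5 were above the other tumour types, led by C4b (3.52) and C2 (3.2), and 2 were below them, Itgb2 (-0.85) and Itgam (-0.82), where 66.3% of all genes were called; no C1q chain was called there. In bronchial adenomas against sorted lung cells 8 of 9 fell (median -1.73), where 19.7% of all genes were called lower.

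Of 14 measured genes of Trem2 signalling and lipid handling 8 rose in Prom1-positive uterus cells and none fell, among them the phosphatase gene Inpp5d (2.28), Apoe (2.23), Tyrobp (2.02) and the lysosomal lipase gene Lipa (1.66). The share of all genes called in this sort was 10.9%. In gastric adenocarcinomas 8 rose, led by Apoe (5.19) and Tyrobp (4.39), and 2 fell, Lpl (-2.01) and Fabp5 (-1.72). In that comparison 58.1% of all genes were called, 35% higher and 23% lower. Of the 2 ligand genes of Csf1r, Csf1 fell by 3.68 in Prom1-positive prostate cells, where Csf1r rose, and Il34 was at background in all sorted groups but for 2 samples. Spi1, the transcription factor of the myeloid lineage, rose by 2.84 in Prom1-positive uterus cells.

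Of 14 genes of alternative activation other than the members, 7 rose in Prom1-positive uterus cells and none fell, led by the scavenger receptor Cd163 (4.66), the mannose receptor Mrc1 (4.20), Clec10a (4.12) and Mgl2 (3.22). The share of all genes called higher in this sort was 5.31%. In prostate Cd163 (3.04) and Mrc1 (2.51) rose in Prom1-positive cells, while none of the 13 general macrophage genes was called. In the prostate sort 3.21% of all genes were called higher and 5.98% lower. In bronchial adenomas against sorted lung cells 8 fell and 2 rose, with Clec10a (-4.42), Ccl22 (-3.62), Cd163 (-3.31) and Ccl24 (-3.06) having the largest falls, and 9 of 13 general macrophage and 8 of 8 T and NK cell genes fell as well. In this comparison 19.7% of all genes were called lower and 23.4% higher. The cytokines that induce the programme, Il4 and Il13, were above the array median on no tumour array. Il33, an alarmin of epithelial and stromal cells, rose by 4.36 in uterine adenocarcinomas and 3.26 in bronchial adenomas against sorted cells. Of all genes 16.4% were called higher in the uterine comparison. State and handling cannot be told apart in either comparison, and a part of Il33 in the programme was not tested.

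Among 13792 other genes, those whose 19 group means correlated most with C1qb were Grn (r = 0.951), Fcgr2b, Apoe, Cfp and Lgmn, and Grn, Cfp and Lgmn also stood among the first 5 for C1qa and C1qc. For Csf1r they were Arrb2 (r = 0.962), Pirb, Slc11a1, Rgl1 and Cfp, and for Trem2 Cysltr1 (r = 0.931), Cd33, C3ar1, Fcrls and Pf4. For Chil3 they were Atp6v0d2 (r = 0.902), Olr1, Vwf, Gpr137b and Mcam, for Retnla Lyve1 (r = 0.872), Cst3, Mgl2, Socs3 and Pigb, and for Arg1 Col18a1 (r = 0.846), Arhgap35, Eva1a, Inhba and Cdk20. These correlations are descriptions, and the groups share array and normalization.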

How the data were processed

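Total RNA of 117 mouse samples was hybridised to Affymetrix arrays. The deposited values are log2 probe set signals that the authors made with RMA and Partek 6.6, per the submitters' processing notes, and they were used as deposited. Of 45141 probe sets 28898 carried 1 gene symbol, 551 several and 15692 none in the platform annotation; the first kind gave 17097 genes, 1 probe set each. Groups were taken from the labels. limma 3.58.1 (R 4.3.3; lmFit, eBayes, Benjamini-Hochberg over all genes tested, threshold 0.05, two-sided) compared Prom1-positive with Prom1-negative cells over 51 sorted samples, with lung and liver left out of the test between tissues, tumours with the mean of both sorts of their organ over all 117 samples, and each tumour type with the mean of the other 6 over 66 tumours. Genes above the array median on at least 3 arrays were tested. The script was tested on simulated data. The 8 genes and all gene lists were chosen with earlier results of these data known; named list genes are the called genes of largest difference, at most 4 a list and contrast, plus paralogues, defining markers and the 5 genes most alike each member. Prom1, Adipoq, Alb, Apoa1 and Cps1 in single tumours were named after their values were seen. The main fits were unpaired. Of 19 pairs of sorts with the same replicate number in the title, 7 correlated above 0.1 in their deviations from group means (-0.344 to 0.59). Of 15 pairs with sample codes at most 3 apart, 9 did so (-0.363 to 0.494). Whether either kind of pair came from the same animals was not in the labels. Promoter windows and neighbours came from RefSeq (GRCm38.p6), in which 5 of the 8 genes had a window; the deposited table names no build. Alternatives were no filter, the mean of a gene's probe sets, repeated quantile normalization, array weights, signal or RNA quality measures as covariates, a replicate block, fits of 1 organ or of all samples, either sort alone as reference and each sorted or lymphoma sample left out.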

Additional observations from a re-analysis of the deposited data

Results flagged for a closer look

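Of 80 sets of 4 to 10 samples examined by Dixon's test, 8 held a sample far from the others, where chance flags about 1 in 20. The sets are not independent, since deviations from group means correlated at 0.96 to 0.97 between the C1q chains. One sample can thus be flagged more than once, and the count cannot be set against that rate. Prom1-negative intestine sample 4 was highest in all 3 C1q chains (C1qa 8.47, with the next at 4.41; C1qb 7.84; C1qc 7.43). Skin carcinoma 5 was lowest in C1qa (4.82, with the next at 7.28) and C1qb (5.13). One Prom1-negative stomach sample was highest in C1qc (5.07, with the next at 3.34), Prom1-negative liver sample 2 in Trem2 (5.58), and Prom1-negative prostate sample 3 in Chil3 (10.71, with the next at 3.89).

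The difference between Prom1-positive and Prom1-negative cells itself differed between prostate, intestine, stomach and uterus by limma's F test for Csf1r (adjusted p = 0.000758) and Trem2 (0.0129). Of all genes 10.6% were called in this test. Lung and liver were left out of it because their differences were known earlier. The Trem2 mean over all sorted tissues was known as well and includes the tissues tested here, so the Trem2 test is not independent of it.

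The difference between tumours and sorted cells differed between the 5 organs for all 8 genes, and for 77.9% of all genes. By limma's F test adjusted p was 9.54e-17 for C1qa, 1.23e-17 for C1qb, 2.48e-15 for C1qc and 1.63e-11 for Csf1r. It was 0.000119 for Trem2, 1.46e-08 for Chil3, 3.89e-07 for Retnla and 1.33e-10 for Arg1. C1qb ran from 5.44 in stomach to -1.49 in lung and Retnla from -6.03 in prostate to -0.81 in lung.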

How the results depend on the processing

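Of 2982 recomputed values 2874 stayed on their side of the threshold, 72 fell below it, 31 passed it and 5 called values turned sign; 77 differences that were called in neither setting changed sign and are counted with the 2874. The 5 were C1qb and C1qc in liver tumours against Prom1-positive cells alone (0.11 and 0.1), C1qb and C1qc in lung tumours against Prom1-negative cells alone (0.17 and 0.12), and Csf1r in uterine tumours against Prom1-negative cells alone (0.94); the choice of sorted cells is the change. In what follows the share of all genes called in the same fit stands in brackets. Of the 8 genes, 2 were called in the prostate sort (9.19%). The number was 1 with no filter (7.53%), with repeated quantile normalization (10.4%) or with array weights (28.7%). It was also 1 with the Gapdh ratio as covariate (12.8%) or with blocks of neighbouring sample codes (8.66%). It was 0 in a fit of prostate alone (20.4%) or of all 117 samples (9.34%). The lung sort had 3 (1.51%), with 6 under array weights (7.2%) and 1 without arrays of low upper quartile (1.39%). Liver tumours had 7 (47.2%), with 4 under array weights (46.6%) or without those arrays (42.6%) and 2 against Prom1-positive cells alone (40.4%). Uterine tumours had 3 (28.8%), with 5 under array weights (46.2%), 7 against Prom1-positive cells alone (21.5%) and 6 in a fit of uterus alone (42.5%). Lung tumours had 5 (43.1%), with 2 against Prom1-negative cells alone (39.8%). Among tumour types, hepatocellular carcinomas had 2 (66.3%), with 5 under array weights (66.7%) or the upper quartile as covariate (54.5%). Prostatic adenocarcinomas had 1 (41.8%), with 2 under array weights (63.2%) and 0 with the Gapdh ratio (39.1%). Other than for the choice of sorted cells, the cause was not tested.

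Leaving out 1 sample at a time gave 0 to 2 calls in the prostate sort, 0 to 6 in lung, 3 to 5 in liver, 5 to 5 in uterus, 6 to 6 in the mean of tissues and 0 to 0 in intestine and stomach. It gave 3 to 4 in prostate tumours, 5 to 5 in lung, 4 to 7 in liver, 7 to 7 in stomach, 2 to 3 in uterus and 6 to 6 in lymphomas. The share of all genes called in each of these fits is not given here. With the title number as a replicate block C1qa in the lung sort was 2.95 and Chil3 in the liver sort -2.97, both no longer past the threshold, and no other call of the 8 genes changed. With blocks of neighbouring codes the Csf1r call of the prostate sort was lost (1.6, adjusted p = 0.0563, limma). Whether these numbers or codes pair the samples was not in the labels. The fits without uterine tumour 6, without prostatic tumours 9 and 10 and without skin carcinoma 5, that of all probe sets and the test of the sort difference over 4 tissues were chosen after seeing the data. Without skin carcinoma 5 Trem2 was no longer called in that type (-0.88, adjusted p = 0.116, limma). Nor was it called there with the mean of both probe sets (-0.46) or with the upper quartile in the fit (-0.75).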

Other observations

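The 2 prostatic adenocarcinomas with high Retnla (samples 9 and 10, at 9.84 and 10.76) were also the 2 of that type with the highest signal of adipocyte genes. Adipoq, the gene of adiponectin, read 9.48 and 10.83 in them and at most 5.35 in the other 8, and Retn, the gene of resistin, read 7.60 and 10.29. The 2 tumours were picked out after their values were seen. Without them the Retnla difference was -7.14 from sorted prostate cells and -1.16 from the other tumour types (adjusted p = 0.0225, limma), where the differences with them were -6.03 and -0.05. Sorted prostate cells, in which Retnla was highest, had Adipoq at background in all 3 Prom1-positive samples. Adipoq was above background in 3 of 5 Prom1-negative samples (mean 4.54, highest 5.61). Uterine adenocarcinoma 3 read 10.08 for Adipoq and 9 for Retn, yet no uterine adenocarcinoma read above 6.99 for Retnla. Gastric adenocarcinomas reached 8.53 for Adipoq and at most 6.08 for Retnla. A link between Retnla and adipocyte genes was not tested.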
